A study of Mus musculus with 20 samples.

Results

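Mouse late 8-cell embryos labelled P300 siRNA I1394G were compared with late 8-cell embryos labelled P300 siRNA NaCr, gene by gene and as whole libraries. The comparison uses 4 of the 20 RNA sequencing libraries of the study, 2 per group, taken by their labels, and every gene of the count table. Both groups carry P300 siRNA and were grown from the zygote in KSOM medium under the same stated conditions. They were sequenced from whole embryos with the Smart-seq2 protocol, so they differ by label only in what was added to the siRNA. The labels spell out neither addition and give no dose of NaCr and no route for I1394G. They do not say whether the libraries of a group came from separate pools of embryos. The p values therefore measure only the spread between libraries of a group, estimated over all 20 libraries unless stated. I1394G is read here as a p300 protein carrying that substitution and NaCr as sodium crotonate. Late 8-cell control embryos (2 libraries) and embryos with P300 siRNA alone (2 libraries) serve as reference points.

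The lysine acyltransferase p300, encoded by Ep300, and its paralogue CBP transfer acetyl and other short acyl groups, crotonyl among them, from their coenzyme A forms to histones at enhancers and promoters. A mutation of the corresponding isoleucine of p300 is described in the literature as leaving crotonyl transfer largely in place while impairing acetyl transfer. Added crotonate is converted in cells to crotonyl-CoA and so supplies the same modification from the metabolite side. At the late 8-cell stage blastomeres compact and polarise, and the transcription factors that later part trophectoderm from inner cell mass begin to be expressed.

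The substitution is shown in its transcript because it is what defines the first group. In the annotated mouse transcript Ep300-201 (GENCODE, build GRCm38), the codon that I1394G names by its number, in a reading frame of 2412 codons, is ATA, isoleucine, and lies at chromosome 15, 81640450 to 81640452, plus strand, in exon 26 of 31. The line gives the reference transcript with 24 bases on either side of the codon, which is in capitals. The upstream flank crosses an exon junction 10 bases before the codon.
Ep300-201: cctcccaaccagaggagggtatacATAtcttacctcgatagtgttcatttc
I1394G replaces the isoleucine encoded there with glycine, and the sequence of the construct was not analysed here.

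Counts deposited per library summed to 21.2 and 24.8 M (mega, counts per library) with I1394G and to 17.5 and 9.29 M with NaCr. The totals of the late 8-cell controls were 22.7 and 21.2 M, and those of the siRNA libraries 3.20 and 20.3 M, the first of which is the shallowest of the series. Levels are given below as CPM, counts scaled to a common library size with TMM factors, for replicates 1 and 2 in that order. Ep300 itself read 14.8 and 16.2 CPM with I1394G and 11.6 and 12.6 CPM with NaCr, beside 16.2 and 13.2 CPM with siRNA alone and 22.0 and 15.2 CPM in controls. The I1394G libraries were the higher pair, by 0.36 ± 0.37 (log2 difference ± SE, 95% interval -0.40 to 1.13). Ep300 counts do not tell the endogenous transcript from a supplied one, and the gene checks neither label here. In bulk embryos, fewer cells of a type and less RNA per cell cannot be told apart.

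Between I1394G and NaCr embryos, 0 of 16603 genes tested (0%) passed an adjusted p of 0.05 in edgeR's quasi-likelihood test. The smallest adjusted p was 1. Unadjusted, 323 genes (1.95%) had a p under 0.05, of which 209 (1.26%) were higher with I1394G and 114 (0.687%) with NaCr. The DESeq2 Wald test called 0 genes as well (357 unadjusted), and limma on log2(FPKM + 1) called 0 (185 unadjusted). An edgeR fit to the 4 libraries alone called 2 genes, Nanog and Timm23, both higher with NaCr and both at an adjusted p of 0.0344. Of its 13458 genes, 1121 had an unadjusted p under 0.05. An edgeR fit to the 8 late 8-cell libraries called 0 of 15203 genes (650 unadjusted). The edgeR fit of all 20 libraries takes its spread from all 10 groups, and the number of small p values differed with the libraries fitted. Without NaCr replicate 2 the fit called 1 gene, Dazl, and without any filter on low counts it called 20, 5 higher with I1394G and 15 with NaCr.

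A missing call does not show that the groups are alike, so the intervals were read as well. The median of all log2 differences, I1394G minus NaCr throughout, was 0.02, the median absolute difference 0.24 and the median SE 0.49. For 7523 genes (45.3%) the 90% interval lay within a 2-fold change either way, and for 1975 within 0.5 on the log2 scale. Precision was greater for genes with more counts. Of the 7592 genes that reached 10 CPM in 1 group or both, 6428 (84.7%) had an interval within 2-fold, and only 56 had a fitted difference of 2-fold or more, 32 higher with I1394G and 24 with NaCr. Over all genes the median 95% interval reached 1.02 to either side. A 2-fold difference in a typical gene was thus at the edge of its unadjusted 95% interval in the fit of all 20 libraries. A call asks for more, since p is adjusted over 16603 genes. Even the smallest unadjusted p of the quasi-likelihood test, 0.000743, did not pass, so 2-fold differences in typical genes can go uncalled. The width of these intervals draws on the spread in all 10 groups. In the fit to the 4 libraries alone, 9076 of 13458 genes had a 90% interval within 2-fold. Counting genes whose libraries do not overlap between groups gave 3386 higher with I1394G (20.4%) and 2704 higher with NaCr (16.3%).

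As whole libraries, the I1394G and NaCr embryos lay at distances between those of the 2 replicate pairs of these groups. The distance used is the root mean square difference of log2 CPM over 12587 genes with a mean of at least 1 CPM. It was 0.505 between the I1394G replicates and 0.645 between the NaCr replicates. The NaCr pair holds the shallowest of the 4 libraries (9.29 M counts), and the part of depth in its distance was not tested. The 4 pairs made of 1 library of each group lay at 0.554 to 0.622, below the NaCr replicates and above the I1394G replicates. Controls lay further away, at 0.931 to 1.01 from I1394G and 0.856 to 0.981 from NaCr. The siRNA libraries lay at 1.09 to 1.38 from NaCr, beyond the controls, and at 0.956 to 1.25 from I1394G, a range that overlaps that of the controls. Pearson correlations over the same genes, given as a description, were 0.974 to 0.979 between the groups, 0.981 within I1394G and 0.972 within NaCr. With 2 libraries against 2, a two-sided exact permutation test cannot go below p = 0.333, so no test of these distances was made.

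**Figure D1:**
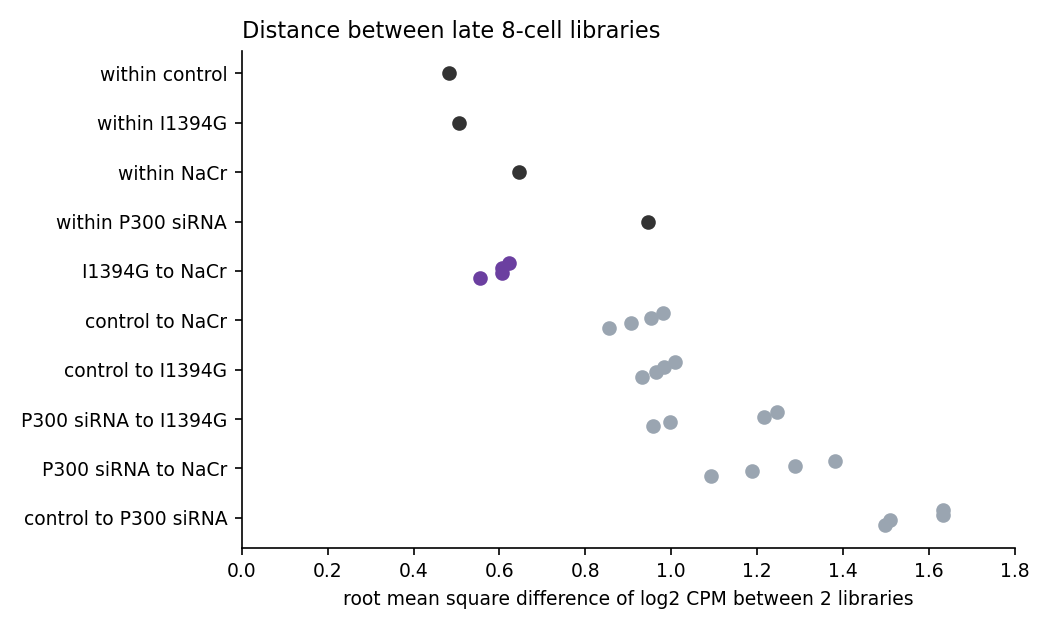
Root mean square difference of log2 CPM (x axis) for every pair of late 8-cell libraries, 1 point per pair, grouped by the groups of both libraries (y axis). The I1394G to NaCr pairs (0.554 to 0.622) fall between the I1394G replicates (0.505) and the NaCr replicates (0.645), and every pair that joins a control or siRNA library to another group lies to the right of these.

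Set against the reference groups, the I1394G and NaCr embryos gave different counts of calls. Against P300 siRNA alone, 1789 genes (10.8%) passed with I1394G, 1028 higher (6.19%) and 761 lower (4.58%). With NaCr 2546 genes (15.3%) passed, 1456 higher (8.77%) and 1090 lower (6.57%). Against controls, 527 genes (3.17%) passed with I1394G, 331 higher (1.99%) and 196 lower (1.18%), and 261 (1.57%) with NaCr, 178 higher (1.07%) and 83 lower (0.5%). For scale, 4645 genes (28%) passed between siRNA alone and controls, 2266 higher (13.6%) and 2379 lower (14.3%). These pairs of comparisons share their siRNA or control libraries, and the direct comparison of I1394G with NaCr called none of the genes. At an equal depth of 3.20 M counts, 15104 and 14999 genes were detected with I1394G and 14675 and 14648 with NaCr. The siRNA libraries held more, 15920 and 16801 genes, and the controls fewer, 14477 and 14422, so the 4 libraries took an intermediate order in which the I1394G replicates stood above both NaCr replicates.

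Among the pluripotency factors of the panel with at least 1 CPM, Nanog had the largest fitted difference. Nanog, a homeobox factor that sustains the naive epiblast, read 406 and 403 CPM with I1394G and 770 and 822 CPM with NaCr. With siRNA alone it read 67.7 and 86.0 CPM, and in controls 747 and 699 CPM, so the NaCr libraries stood above both controls and the I1394G libraries in between. The difference was -0.98 ± 0.48 (95% interval -1.99 to 0.04), which missed the threshold over all genes (adjusted p = 1). Against siRNA alone Nanog rose by 2.39 ± 0.51 with I1394G (adjusted p = 0.00656) and by 3.37 ± 0.53 with NaCr (adjusted p = 0.000539), 2 values that share the siRNA libraries.

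Pou5f1, which encodes the pluripotency factor Oct4, read 139 and 145 CPM with I1394G and 189 and 189 CPM with NaCr, against 26.8 and 51.2 CPM with siRNA alone and 265 and 287 CPM in controls. The groups did not overlap, and the difference was -0.41 ± 0.42 (95% interval -1.30 to 0.47). Klf4, a Kruppel-like factor of the naive state, held 17.8 ± 1.76 CPM (SD, n = 2) with I1394G and 24.7 ± 1.99 CPM with NaCr, a difference of -0.47 ± 0.30 (SE). Klf5, its relative needed in both early lineages, went the other way, at 69.8 and 69.7 CPM with I1394G and 52.2 and 63.8 CPM with NaCr (0.27 ± 0.22, 95% interval -0.20 to 0.74). Nr5a2, a nuclear receptor active from early cleavage, overlapped between the groups, with 129 and 116 CPM against 114 and 121 CPM. Sox2 had 3 counts or fewer in each library and gives no usable ratio. Dppa3, a maternal chromatin factor retained in the embryo, stood at 7217 and 6861 CPM with I1394G and 8368 and 8975 CPM with NaCr (-0.30 ± 0.15). Of 29 pluripotency and inner cell mass genes tested, 0 passed, 12 had both NaCr libraries higher (16.3% of all genes did) and 5 both I1394G libraries higher (20.4% of all genes), with a median of -0.14 beside 0.02 over all genes. Of the same 29 genes, 16 were lower and 2 higher with siRNA alone than in controls, beside 14.3% and 13.6% of all genes.

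**Figure D2:**
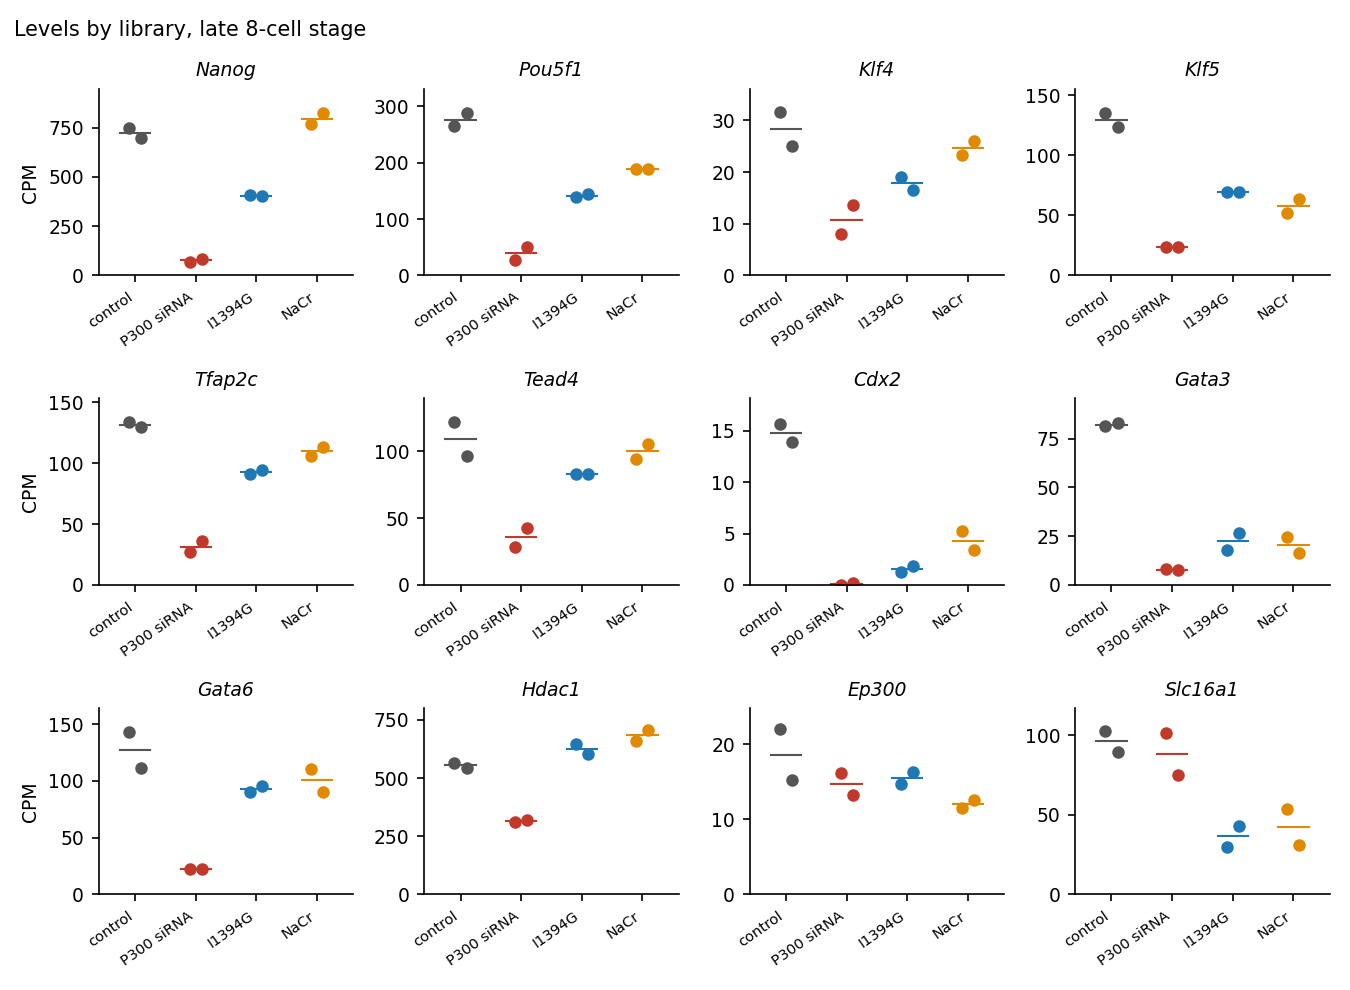
CPM (y axis, from 0) of 12 genes in each late 8-cell library, with points for libraries and a line for the mean of each group of 2. Nanog, Pou5f1, Klf4, Tfap2c, Tead4, Cdx2 and Hdac1 have both NaCr points above both I1394G points. Klf5 and Ep300 have the opposite order, and Gata3, Gata6 and Slc16a1 overlap.

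None of the trophectoderm genes passed between the groups. Of 28 tested, 10 had both NaCr libraries higher (16.3% of all genes did), 6 both I1394G libraries higher (20.4% of all genes), and 12 overlapped. Cdx2, the homeobox factor that specifies trophectoderm, was low, at 1.28 and 1.89 CPM with I1394G (25 and 43 counts) and 5.28 and 3.36 CPM with NaCr (80 and 27 counts). In controls it read 15.7 and 13.9 CPM, with siRNA alone 0 and 0.204 CPM, so all 4 libraries lay below the controls. The interval of the difference was wide, -1.45 ± 0.95 (95% interval -3.45 to 0.55). Against siRNA alone Cdx2 rose by 4.68 with NaCr (adjusted p = 0.0178), and the value with I1394G, 3.23, missed the threshold (adjusted p = 0.1003), which does not show that the groups differ.

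Tfap2c, an AP-2 factor upstream of Cdx2, read 90.8 and 94.2 CPM with I1394G and 105 and 114 CPM with NaCr (-0.24 ± 0.22, 95% interval -0.70 to 0.22). Tead4, the DNA-binding partner of YAP that activates the trophectoderm programme, read 82.8 and 82.8 CPM with I1394G and 94.3 and 106 CPM with NaCr (-0.27 ± 0.27). Gata3 overlapped, at 18.1 and 26.8 CPM against 24.5 and 16.2 CPM, and in both groups lay well below the controls at 81.3 and 83.1 CPM. Krt8, an epithelial keratin, read 128 and 150 CPM with I1394G and 211 and 182 CPM with NaCr (-0.50 ± 0.46). Over 28 trophectoderm genes tested, 0 passed, the median was -0.11 and the intervals of 9 lay within 2-fold. Gata6, the primitive endoderm factor, was alike in level, at 90.5 and 95.9 CPM with I1394G and 111 and 90.4 CPM with NaCr (-0.11 ± 0.53), though its interval reaches past 2-fold. Of 19 primitive endoderm genes, 0 passed and 15 were higher with I1394G (median 0.30), and 4 intervals lay within 2-fold.

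Signalling and polarity genes gave medians near the value of all genes. The medians were -0.03 for 26 Hippo pathway genes, -0.04 for 34 polarity, adhesion and junction genes, -0.02 for 31 FGF and ERK feedback genes and 0.00 for 31 BMP and Nodal genes, with 0 called in each. Taok1, a kinase upstream of the Hippo core, read 293 and 321 CPM with I1394G and 323 and 320 CPM with NaCr. Cdc42, the small GTPase of the apical polarity complex, read 864 and 915 CPM against 1126 and 919 CPM (-0.20 ± 0.19). Id3, a direct target of BMP signalling, read 99.6 and 111 CPM against 97.2 and 152 CPM.

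As read here, the additions would act on acylation from the enzyme and the metabolite side, so the genes of this machinery were read by role. Acylation itself is not measured by these libraries. Among the writers, all 21 lysine acyltransferase genes tested had intervals within 2-fold (median 0.05, 0 called). Of all genes tested 45.3% had such an interval, and of those reaching 10 CPM in 1 group or both 84.7%. Crebbp, which encodes CBP, read 38.9 and 36.1 CPM with I1394G and 29.1 and 37.4 CPM with NaCr (0.18 ± 0.24). Hat1, the acetyltransferase of newly made histone H4, read 679 and 831 CPM against 930 and 730 CPM. Among 25 deacetylases and sirtuins, which also remove crotonyl groups in part, 0 passed (median 0.17). Hdac1, a class I deacetylase with decrotonylase activity, read 649 and 602 CPM with I1394G and 661 and 709 CPM with NaCr (-0.13 ± 0.16, 95% interval -0.47 to 0.21), all above the siRNA libraries at 312 and 322 CPM. Hdac3 and Sirt1 differed by 0.17 ± 0.25 and 0.05 ± 0.26.

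Among 30 readers of crotonyl- or acetyl-lysine, 0 passed and 25 had intervals within 2-fold (median 0.16). Mllt3, which encodes the YEATS protein AF9, was the member of the panel with the largest positive difference among those with at least 1 CPM, at 3.62 and 3.92 CPM against 2.31 and 2.74 CPM (0.60 ± 0.40, 95% interval -0.24 to 1.44). Yeats2 differed by 0.35 ± 0.34 and Dpf2, a double PHD finger subunit of the BAF complex, by -0.05 ± 0.23. Cdyl, a chromodomain protein that lowers histone crotonylation, read 5.77 and 6.03 CPM with I1394G and 8.05 and 7.59 CPM with NaCr (-0.41 ± 0.33).

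On the supply side, 29 genes of crotonyl-CoA and acetyl-CoA metabolism had a median of -0.03 and 24 intervals within 2-fold. Acss2, the synthetase that activates acetate and crotonate, read 9.34 and 10.1 CPM with I1394G and 9.37 and 15.05 CPM with NaCr (-0.32 ± 0.36). Echs1, which hydrates crotonyl-CoA in mitochondria, read 66.5 and 60.7 CPM against 66.8 and 62.3 CPM (-0.02 ± 0.29). Pdhb, a pyruvate dehydrogenase subunit, differed by -0.07 ± 0.16. Slc16a1, the monocarboxylate transporter MCT1, read 29.9 and 43.1 CPM with I1394G and 53.6 and 31.3 CPM with NaCr, and the groups overlapped (-0.22 ± 0.27). Both groups were lower than the siRNA libraries, at 102 and 75.2 CPM, with log2 differences of -1.27 and -1.05 (adjusted p = 0.00648 and 0.0137, sharing the siRNA libraries). They were also lower than the controls, at 103 and 89.7 CPM, with log2 differences of -1.40 and -1.17 (adjusted p = 0.00784 and 0.0332, sharing the controls), while siRNA alone and control differed by -0.13 (adjusted p = 0.755). Its companion Bsg, which brings the transporter to the membrane, differed by 0.00 ± 0.21.

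**Figure D3:**
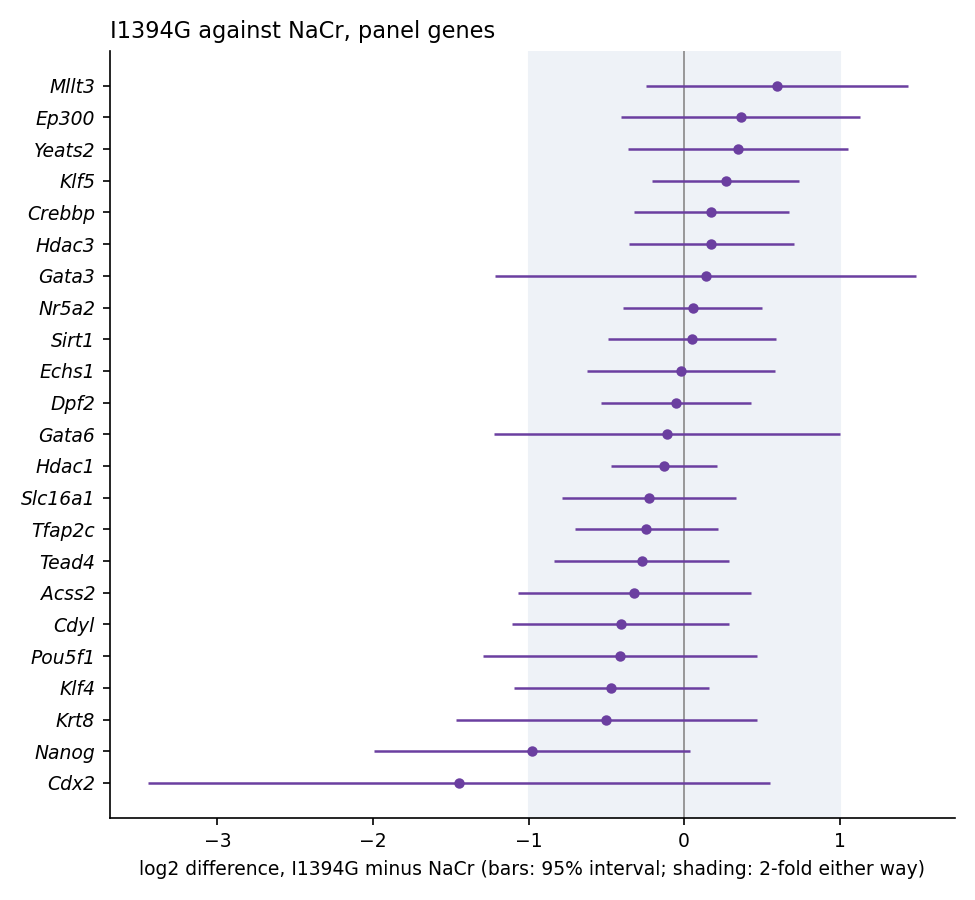
Log2 difference I1394G minus NaCr (x axis) with its 95% interval for Ep300 and 22 further panel genes, with the range of a 2-fold change shaded. Each interval includes 0, Nanog (-1.99 to 0.04) only just, and those of Cdx2, Gata3 and Gata6 are the widest.

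Of the panel of 24 genes, the 90% intervals of 15 lay within 2-fold. Both NaCr libraries were higher for 9 of them, both I1394G libraries for 4, and 11 overlapped, beside 16.3% and 20.4% of all genes tested.

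Growth genes were tightly measured, and nearly every member had an interval within 2-fold between I1394G and NaCr embryos. Such intervals were found for 45.3% of all genes tested and for 84.7% of those reaching 10 CPM in 1 group or both. All 54 respiratory chain and ATP synthase genes had 90% intervals within 2-fold (median 0.02), as did all 51 mitochondrial ribosomal protein genes (-0.04), all 37 proteasome genes (-0.11) and all 41 DNA replication genes (-0.07). The shares were 76 of 78 for cytosolic ribosomal proteins (median -0.09), 60 of 61 for ribosome biogenesis (-0.03) and 32 of 33 for mitosis genes (-0.08). Atp5b, the catalytic subunit of ATP synthase, read 1918 and 2055 CPM with I1394G and 1888 and 2020 CPM with NaCr (0.02 ± 0.17). Psmb6, a proteasome core subunit, read 1371 and 1298 CPM against 1394.2 and 1372 CPM (-0.05 ± 0.21). Within these bounds the differences leaned to NaCr most strongly in 2 of the lists, without a called member. Only 3 of 37 proteasome genes and 10 of 78 cytosolic ribosomal protein genes had a positive value, beside 52.4% of all genes tested. Both NaCr libraries were higher for 18 and 41 of them (16.3% of all genes), both I1394G libraries for 0 and 4 (20.4%). Positive values numbered 11 of 41 for DNA replication, 17 of 51 for mitochondrial ribosomal proteins and 24 of 61 for ribosome biogenesis. They numbered 13 of 33 for mitosis and 33 of 54 for the respiratory chain. For comparison, 54 of the 78 ribosomal protein genes were lower with siRNA alone than in controls (14.3% of all genes). Against siRNA alone, 43 were higher with I1394G (6.19% of all genes) and 56 with NaCr (8.77%), 2 counts that share the siRNA libraries.

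The 5 most counted genes with an interval within 0.5 on the log2 scale include Npm1, a nucleolar chaperone, with 4172 and 4392 CPM with I1394G and 4627 and 4783 CPM with NaCr (-0.14 ± 0.15). The others were Hsp90aa1 (-0.09 ± 0.23) and Hsp90ab1 (-0.14 ± 0.16), cytosolic chaperones, Fbxo15 (-0.16 ± 0.17), an F-box gene of undifferentiated cells, and Map1lc3b (-0.11 ± 0.21), an autophagosome protein. The 5 values were all negative.

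**Figure D4:**
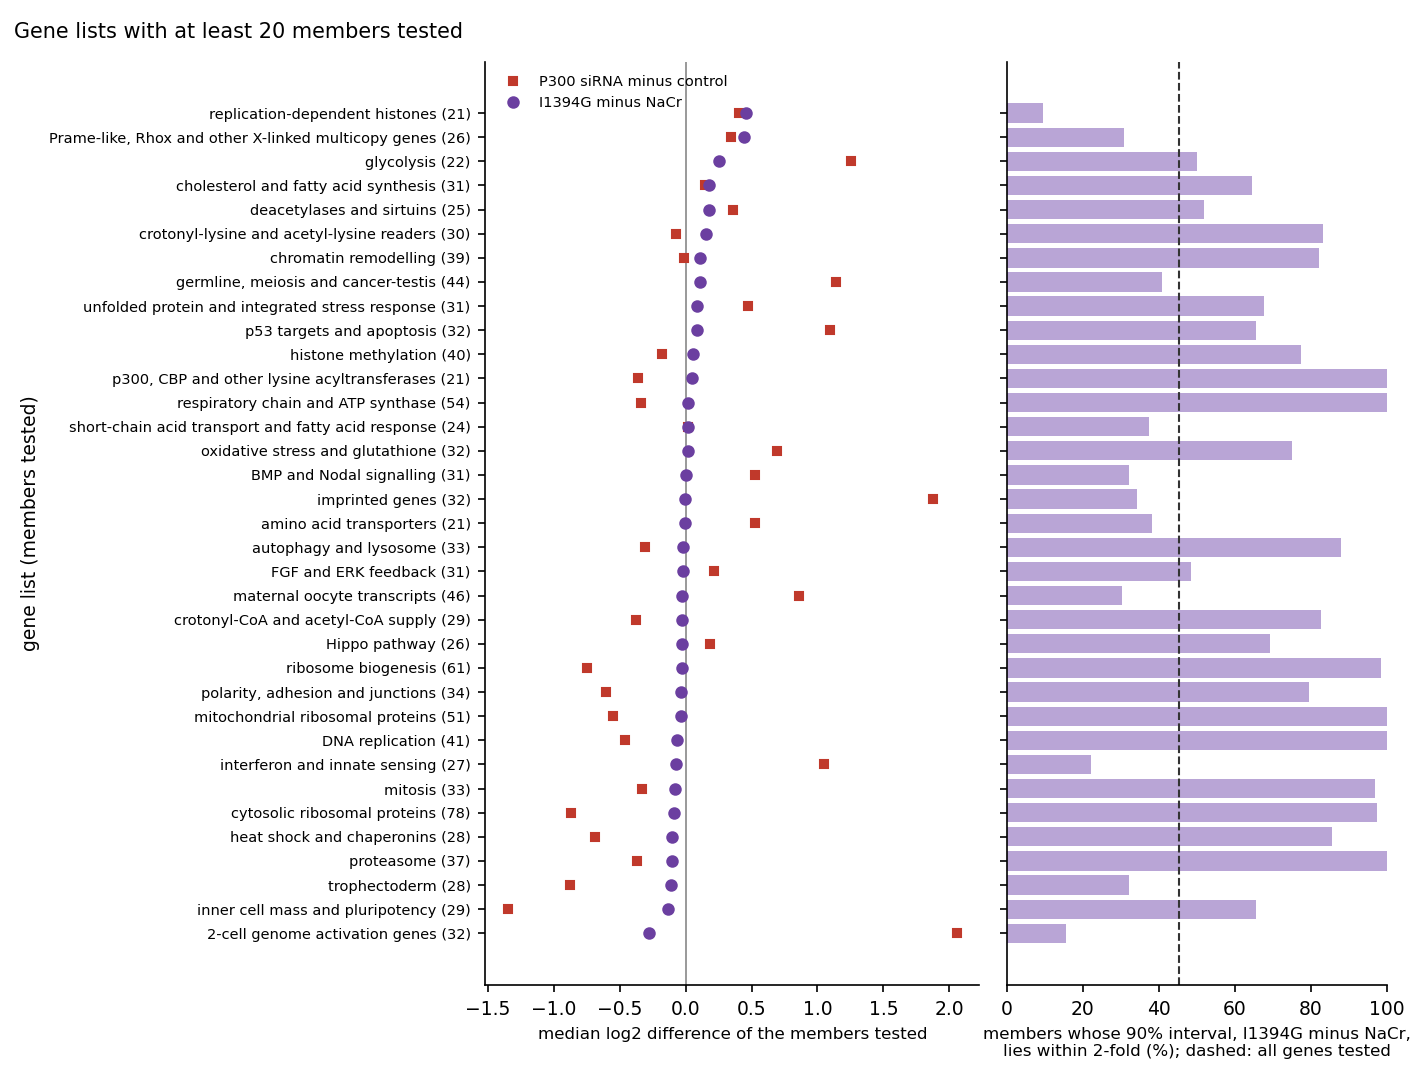
Left, median log2 difference of the members tested (x axis) for each gene list of at least 20 tested genes (number in brackets), for I1394G minus NaCr (circles) and, for scale, P300 siRNA minus control (squares). Right, the share of members whose 90% interval for I1394G minus NaCr lies within 2-fold, with all genes tested (45.3%) as a dashed line; circles stay between -0.28 and 0.46 while squares span -1.35 to 2.06.

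Several stress and metabolic genes passed against controls in both groups and not between the groups. Ccng1, a p53 target, read 522 and 582 CPM with I1394G and 540 and 521 CPM with NaCr, against 143 and 205 CPM in controls (0.06 ± 0.35 between the groups). It rose against controls by 1.66 with I1394G and 1.61 with NaCr (adjusted p = 0.0148 and 0.026, sharing the controls). Of 32 p53 and apoptosis genes, 8 were higher than in controls with I1394G (1.99% of all genes) and 7 with NaCr (1.07%), and the median between the groups was 0.09. Prdx1, a peroxide reductase, read 1574 and 1738 CPM with I1394G and 1609 and 1427 CPM with NaCr, against 806 and 756 CPM in controls (0.13 ± 0.16 between the groups). Fdps, a prenyl synthase of the cholesterol pathway, read 1286 and 1533 CPM against 1478 and 1941 CPM, and controls read 415 and 441 CPM (-0.28 ± 0.31 between the groups). It rose against controls by 1.72 with I1394G and 1.999 with NaCr (adjusted p = 0.00699 and 0.00429, edgeR). Between the groups, Fdps had the lowest value of 31 cholesterol and fatty acid synthesis genes, of which 0 passed. Of the 31, 25 were higher with I1394G (median 0.18), beside 52.4% of all genes. Both I1394G libraries were higher for 15 (20.4% of all genes) and both NaCr libraries for 1 (16.3%). Heat shock and chaperonin genes had a median of -0.10, oxidative stress genes 0.02, unfolded protein and integrated stress genes 0.09 and amino acid transporters 0.00, with 0 called in each.

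Among lists of at least 20 tested genes, the medians farthest from 0 were 0.46 for 21 replication-dependent histones, 0.45 for 26 Prame-like, Rhox and other X-linked multicopy genes, 0.25 for 22 glycolysis genes and -0.28 for 32 genes of 2-cell genome activation. Their intervals were within 2-fold for 2, 8, 11 and 5 members, and 0 passed in each. Reads of near-identical copies may be divided among family members by the authors' counting, so values of single Prame-like, Rhox, Zscan4 and histone genes are uncertain. Maternal oocyte transcripts (46 tested), imprinted genes (32) and germline and cancer-testis genes (44) had medians of -0.02, 0.00 and 0.11. Chromatin genes were close to 0, at 0.11 for DNA methylation, 0.05 for histone methylation and 0.11 for remodelling complexes.

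The genes with the smallest unadjusted p values were read after their values were seen and none passed over all genes. They were taken as 12 in each direction whose higher group held at least 10 CPM, with no overlap between groups. Timm23, a channel subunit of the mitochondrial inner membrane translocase, had the smallest p of all (0.000743). It read 797 and 773 CPM with I1394G and 1442 and 1348 CPM with NaCr, with controls at 1342 and 1448 CPM and siRNA libraries at 605 and 360 CPM (-0.83 ± 0.20, 95% interval -1.26 to -0.40). C1d, a nuclear exosome cofactor, read 495 and 528 CPM against 822 and 960 CPM (-0.80 ± 0.20). Its NaCr libraries stood above both controls, at 571 and 668 CPM.

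Higher with I1394G was Slc3a2, the heavy chain of several amino acid transporters, at 383 and 354 CPM against 204 and 260 CPM (0.67 ± 0.20, 95% interval 0.25 to 1.08). Pnma5, a gene of the paraneoplastic antigen family on the X chromosome, read 34.6 and 27.7 CPM against 11.2 and 16.7 CPM (1.17 ± 0.30). Rhox6, an X-linked homeobox gene, read 18.0 and 21.5 CPM against 4.69 and 5.47 CPM, with siRNA libraries at 14.6 and 12.7 CPM and controls at 0.924 and 1.05 CPM (1.96 ± 0.58). Of these 12 genes higher with I1394G, 6 are X-linked, and of the 12 higher with NaCr, 1 is. X-linked genes make up 4.04% of the 12587 genes with at least 1 CPM. The floor of 10 CPM could be met by the higher group alone, so these counts are only a description.

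The X chromosome was therefore read as a whole, a choice made after those values. Its 508 genes with at least 1 CPM had a median of 0.23, and 394 of them (77.6%) were higher with I1394G. The 19 autosomes had medians from -0.06 to 0.05, with 42.4% to 55.6% of their genes higher. By single pairs of libraries the X median was 0.240, 0.313, 0.151 and 0.263, each above the differences between replicates, 0.1002 within I1394G and 0.085 within NaCr. Of the X-linked genes, 25 had an unadjusted p under 0.05 with I1394G higher and 1 with NaCr higher, beside 110 and 66 of 12053 autosomal genes, and 0 passed after adjustment. Of the genes with 10 CPM in 1 group or both, 14 of the 32 that were 2-fold or more higher with I1394G are X-linked, and 2 of the 24 higher with NaCr. The higher group alone can meet this floor, and the 14 include genes that prompted this reading, so the counts add no separate support.

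Relative to controls and to the autosomes, the X-linked median stood at 0.443 and 0.330 in the I1394G libraries and at 0.185 and 0.148 in the NaCr libraries. It stood at 0.716 and 0.484 in the siRNA libraries, so the order was siRNA, I1394G, NaCr, control. Sex-linked transcripts also moved between libraries. The summed level of the Y-linked genes Ddx3y, Eif2s3y, Kdm5d and Uty was 61.8 and 135 CPM with I1394G and 186 and 149 CPM with NaCr. It was 81.1 and 175 CPM in controls, and 279 and 218 CPM with siRNA alone. Xist, the RNA that silences an X chromosome in female embryos, read 139 and 98.3 CPM with I1394G and 93.1 and 127 CPM with NaCr. The part of a different mix of female and male embryos in the X-linked difference was not tested.

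The direction of the remaining small differences was set against the change between siRNA and control embryos, which uses none of the 4 libraries. Of the 4645 genes called between siRNA and control, 4135 had a mean of at least 1 CPM. Over these, the I1394G minus NaCr difference had a slope of 0.079 on the siRNA minus control difference (Pearson r 0.39 across genes, a description, since genes are not independent replicates). Where siRNA was higher than control, the median was 0.22 and 73.6% of 1789 genes were higher with I1394G. Where siRNA was lower, the median was -0.11 and 72.3% of 2346 genes were higher with NaCr. By library, the slopes around the mean of the 4 were 0.064 and 0.027 for I1394G and -0.037 and -0.053 for NaCr, without overlap. On the same scale controls lay at -0.447 and -0.444 and siRNA libraries at 0.573 and 0.537. The genes were called between these same references, so the places of the references at the ends follow from that choice. Both groups lay between these ends, with the I1394G libraries nearer the siRNA end by a small fraction of the length of the axis. The slope was 0.078 over autosomal genes and 0.052 on the early 8-cell siRNA axis, taken over the 2557 genes of at least 1 CPM among the 2741 (16.5%) called there. Along the change from early to late 8-cell stage in controls, the slope was -0.015 over 4033 genes of at least 1 CPM, out of 4346 (26.2%) called, and the libraries overlapped, at -0.016 and -0.00035 with I1394G and 0.021 and -0.005 with NaCr.

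**Figure D5:**
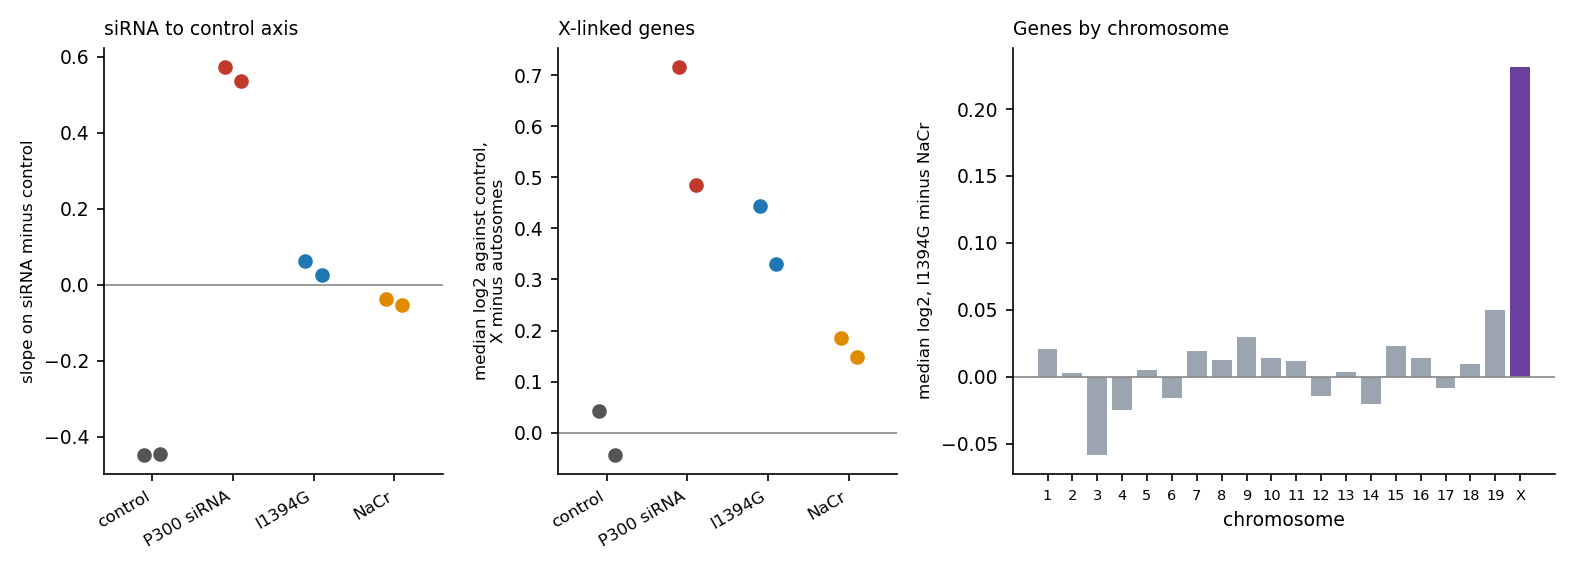
Left, slope of each late 8-cell library on the siRNA minus control difference; centre, median log2 difference from controls of X-linked genes minus that of autosomal genes, per library; right, median I1394G minus NaCr difference of the genes of each chromosome. The I1394G points lie on the siRNA side of the NaCr points in both left panels, and the X bar (0.23) stands above the autosomes (-0.06 to 0.05).

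Markers of the labelled cells were present in all 4 libraries and most markers of other cells had few counts, with Amhr2 and Cd68 as exceptions. The 8 blastomere markers, Dppa3 and Pou5f1 among them, summed to 7903 and 7620 CPM with I1394G and 9278 and 9816 CPM with NaCr, most of it from Dppa3 (7217 and 6861, 8368 and 8975 CPM). The 3 blood markers were at 0 counts in each library, the 4 fibroblast markers summed to between 0.255 and 0.616 CPM, and the 3 sperm markers to between 0.528 and 1.45 CPM. The 10 cumulus and granulosa markers summed to 65.9 and 56.3 CPM with I1394G and 49.7 and 73.0 CPM with NaCr, nearly all of it from Amhr2 (62.6 and 54.1, 47.0 and 70.5 CPM), while Has2 was at 0 counts and Cyp19a1, Foxl2, Amh, Inha and Fshr at 9 counts or fewer. Cd68, a macrophage marker from the longer list of blood, fibroblast and sperm genes, read 33.9 and 48.6 CPM with I1394G and 30.4 and 35.9 CPM with NaCr, against 7.39 and 6.90 CPM in controls and 44.9 and 47.6 CPM with siRNA alone. The part of other cells in the results was not tested.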

How the data were processed

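RNA was measured in 20 mouse embryo libraries, and 4 of them form the comparison. The authors deposited raw counts per gene and FPKM values for 25208 genes. Build mm9, Cufflinks 2.2, HISAT2 2.2.1, cutadapt 4.1 and bcl2fastq 2.20.0.422 are listed, with no role, per the submitters' processing notes. The counting tool, strand setting and annotation are not given in the sources used here, so overlapping and antisense genes cannot be separated. Deposited counts were fitted in R 4.3.3 with edgeR 4.0.16: default filter on low counts (16603 genes kept), TMM scaling, 1 coefficient for each of 10 groups over all 20 libraries, 10 residual and 7.98 prior degrees of freedom. The quasi-likelihood F test was two-sided, with Benjamini-Hochberg adjustment over all genes and a call at 0.05. The SE is the absolute log2 difference over the square root of F. Log2 CPM for distances used a prior count of 1. Deposited FPKM values were used only as an alternative, on a log2 scale with a pseudocount of 1 or 0.1, in limma 3.58.1. DESeq2 1.42.0 was a further alternative, and the fit was tested on simulated data. None of the 10 replicate pairs agreed within sampling noise.

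Genes were named by a rule: Ep300, up to 15 called genes in each direction, up to 3 called members or the most counted member of each of 41 gene lists, a panel of 24 genes, and the 5 most counted genes with a 90% interval within 0.5. The members, lists and rule were chosen with earlier results of these data known. A planned reading of called genes along the siRNA and stage axes could not be made because no gene was called, and genes called on the axis itself were used. Chromosomes came from the RefSeq table of GRCm38.p6, with 16583 genes matched, and the Ep300 codon from GENCODE M21 on GRCm38. No mm9 coordinate was used.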

Additional observations from a re-analysis of the deposited data

How the results depend on the processing

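Over 17 alternatives, genes called between I1394G and NaCr stayed at 0 except for 20 without a low-count filter, 2 in the fit of the 4 libraries alone, and 0 to 1 when leaving out a library (1 without NaCr replicate 2). Called panel and listed genes numbered 1 and 5 without the filter and 1 and 1 in the fit of the 4 libraries, and listed genes 0 to 2 when leaving out a library. Replicate numbers do not pair the libraries by label: the correlation of the replicate differences between the groups was -0.06 over 12587 genes, and the fit with a replicate block called 0 genes. Genes with an interval within the margin numbered 7523, with 1975 at a margin of 0.5 and 11699 at 2, and 6024 to 6409 when leaving out a library. The ratio of mean distance between to within groups, 1.04, ran from 0.899 to 1.22 when leaving out a library. The difference in genes detected at equal depth, I1394G minus NaCr, was 390 and ran from 337 to 443. The slope on the siRNA axis was 0.079, against 0.052 on the early 8-cell axis and 0.043 with limma on log2(FPKM + 1), and ran from 0.046 (without I1394G replicate 1) to 0.114 (without NaCr replicate 1). The stage slope ran from -0.028 to -0.003. The X-linked median minus that of autosomes was 0.226, ran from 0.173 to 0.293 when leaving out a library, and was 0.156 with limma. Of 1722 values of 102 named genes under alternatives, 76 changed sign and 10 passed the threshold; of 697 list medians, 147 moved beyond the spread. With 2 libraries a group and 9.29 M counts in the shallower NaCr library, 2-fold differences in low-count genes were not detectable.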

Other observations

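For 3 genes the NaCr replicates differed widely from each other, and these were singled out after their values were seen. Zscan4d, a gene of the 2-cell stage, read 12.6 CPM (101 counts) in NaCr replicate 2, against 0.198 CPM in NaCr replicate 1 and 0.255 and 0 CPM with I1394G, while the siRNA libraries read 27.9 and 0.123 CPM. The unnamed gene model Gm11487 had 106 counts in NaCr replicate 2 and at most 1 in each of the other 3 libraries. Dazl, an RNA-binding protein of germ cells, was higher in the other replicate, with 57.2 CPM in NaCr replicate 1 and 10.6 CPM in replicate 2, beside 13.5 and 13.5 CPM with I1394G and 101 and 111 CPM with siRNA alone. Without NaCr replicate 2, Dazl passed the test (adjusted p = 0.00679, edgeR), a call that then rests on NaCr replicate 1. Without the filter on low counts all 3 passed in edgeR, higher with NaCr (adjusted p = 1.56e-18, 2.33e-16 and 0.0108). The filter had not removed them: in the filtered edgeR fit their unadjusted p values were 0.00813, 0.00124 and 0.00709, and none passed. Their calls thus depend on which other genes enter the fit, and for each gene 1 NaCr library carries the difference.

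The noncoding RNAs Rn45s and Rpph1, also singled out after their values were seen, were higher in both I1394G libraries than in either NaCr library. Rn45s, the ribosomal RNA precursor, read 4595 and 5089 CPM with I1394G and 2915 and 3475 CPM with NaCr, against 6011 and 5170 CPM in controls and 5718 and 9139 CPM with siRNA alone (0.60 ± 0.30, 95% interval -0.04 to 1.24). Rpph1, the RNA component of RNase P, read 23.7 and 25.8 CPM with I1394G and 6.54 and 10.6 CPM with NaCr (1.55 ± 0.65), against 11.2 and 17.5 CPM in controls and 0.265 and 3.55 CPM with siRNA alone. Neither gene passed over all genes in the filtered fit, Rpph1 passed without the filter (adjusted p = 0.0185), and the part of RNA quality or library composition in these values was not tested.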
